A study of Mus musculus with 18 samples.

Results

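Apolipoproteins are the proteins that coat lipid particles in blood, and the liver makes most of them. The genes described here are the apolipoprotein genes Apob, Apoc1, Apoc3, Apoe, Apoa1, Apoa2 and Apoa5 together with Mttp, the gene of microsomal triglyceride transfer protein. They were taken from a fixed list of 10 symbols, of which 8 were found among the 23930 genes in the files. Apoa4 and Apoc2 were not analysed here.

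In the hepatocyte, apoB is made on the rough endoplasmic reticulum (ER), and microsomal triglyceride transfer protein loads it with lipid during translation, which starts a very low density lipoprotein (VLDL) particle. ApoB that is not loaded is degraded. Particles leave the ER in COPII-coated carriers, and the exchangeable apolipoproteins (apoC, apoE and apoA-V) set how fast lipase and receptors clear them from blood, whereas apoA-I and apoA-II build high density lipoprotein (HDL). Alcohol feeding is known to fill hepatocytes with triglyceride, and VLDL export is a main route by which triglyceride leaves the liver.

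Liver RNA was measured in 18 libraries in 6 groups of 3, with a targeted panel that reads 1 amplicon per gene. All mice were Yap fl/fl (floxed Yap, the transcriptional coactivator of the Hippo pathway) and received an adeno-associated virus (AAV) at 8 weeks of age. In each virus the hepatocyte promoter TBG drove the insert, so that only hepatocytes were aimed at. Knockout (KO) mice received AAV-TBG-Cre at 5e10 genome copies, YAP-overexpressing (OE) mice AAV-TBG-YAP-P2A-EGFP at 2e11, and control mice AAV-TBG-GFP at 2e11, so the dose of virus was lower in KO mice than in controls. The liquid diet began 2 weeks later, with 5 days of acclimation and then 4 weeks of Lieber–DeCarli ethanol diet (EtOH) or of the control diet (pair-fed). A last gavage gave 5 g/kg ethanol as a 33% solution, or maltose-dextrin of equal calories, and the liver was taken 9 hours after it. The labels give neither strain nor sex and do not say that libraries come from different mice, and the p-values then reflect library-to-library spread alone, which may be technical. They also do not give the species of the YAP insert or where the Yap1 amplicon lies relative to the floxed exon.

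Libraries held 4680152 to 5806228 reads. Yap1, the targeted gene, was at 3.34 to 5.08 CPM (a gene's reads, scaled to the library's total) in KO livers on ethanol and 4.18 to 15.1 CPM in KO pair-fed livers, and at 106.4 to 143.7 CPM in OE livers on ethanol. OE pair-fed livers were at 57.6, 155 and 214 CPM, and control livers of both diets at 51.5 to 66.6 CPM. The first of the OE pair-fed libraries, the library labelled OE pair-fed replicate 1, thus lay within the control range and goes against its label. Cyp2b10, a cytochrome P450 gene known to rise with alcohol feeding, was at 193 to 1171 CPM in the ethanol libraries and 13.9 to 93.3 CPM in the pair-fed libraries, without overlap. This gene was picked to check the diet labels with earlier results of these data known, so it is no independent check. Xist was at 348 to 423 CPM in 5 libraries, namely all 3 KO pair-fed libraries and control pair-fed replicates 2 and 3, and at most at 2.75 CPM in the other 13, which held 53.96 to 128.8 CPM of the Y-linked gene Ddx3y. Ethanol and pair-fed diet in KO livers were therefore split completely by this pattern and cannot be told apart from it. All ethanol groups and the OE pair-fed group share the Y-linked pattern. Only the control pair-fed group holds both, so a term for the pattern rests on its replicate 1 against its replicates 2 and 3. With this term, OE pair-fed and control ethanol livers are compared with control pair-fed replicate 1 alone. In KO livers the term shifts the ethanol change by the gap between these controls and does not separate diet from pattern. Alb, the albumin gene that marks hepatocytes, led all 18 libraries in abundance. Of 8 enterocyte markers, Alpi, Lct and Cdh17 were at 0, Vil1, Sis, Cdx1 and Cdx2 were at most at 0.382 CPM, and Fabp2 was at 42.2 to 221 CPM. The 6 hepatocyte markers measured summed to 55191 to 58409 CPM in OE livers on ethanol. KO livers on ethanol held 61615 to 68186 CPM of them and controls on ethanol 59502 to 85446 CPM. Pair-fed, the sums were 38783 to 45792 CPM in OE livers, 66923 to 83183 CPM in KO livers and 45385 to 72941 CPM in controls. OE livers on ethanol thus lay above OE pair-fed livers and below KO and control livers on ethanol, without overlap. OE pair-fed livers lay wholly below KO pair-fed livers and overlapped with control pair-fed livers. The part of these sums in the comparisons between genotypes was not tested.

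For the promoters, RefSeq windows (GRCm38.p6, from 250 bases before to 50 bases after a transcript start) were available for 6 of the 8 genes, 10 windows in all. They are shown for Apob, because its level differed most between group means, and for the only start of these genes with the letters bound by TEAD, the DNA-binding partner of YAP. The Apob window lies at chr12:7977427-7977726 on the plus strand, and the Apoe window at chr7:19698349-19698648 on the minus strand. Capitals mark TATAAA in Apob, 60 bases before the start, and GGAATG in Apoe, 130 bases before this start.
Apob: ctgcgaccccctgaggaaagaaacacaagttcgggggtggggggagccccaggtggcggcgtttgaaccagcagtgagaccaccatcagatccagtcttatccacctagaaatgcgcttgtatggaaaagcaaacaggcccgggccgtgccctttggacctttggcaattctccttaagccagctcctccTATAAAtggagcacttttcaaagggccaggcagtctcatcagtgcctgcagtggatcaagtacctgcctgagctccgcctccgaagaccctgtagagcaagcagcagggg
Apoe: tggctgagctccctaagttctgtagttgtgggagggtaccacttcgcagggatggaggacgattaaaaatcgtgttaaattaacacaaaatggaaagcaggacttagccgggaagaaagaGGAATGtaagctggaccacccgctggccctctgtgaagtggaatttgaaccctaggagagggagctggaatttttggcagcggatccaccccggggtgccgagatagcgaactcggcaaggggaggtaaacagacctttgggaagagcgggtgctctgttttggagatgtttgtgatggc
Both strands were searched. GGAATG was in 1 of the 10 windows, against 14.7% of all 32851 promoter windows. TATAAA was in 5 of the 10, in windows of Apob, Apoe, Apoa2 and Apoa5, against 13.6% of all windows. The 2 Apoa5 windows among them overlap and hold the same site, so the 5 windows are not independent and show no excess. The unfolded protein response element TGACGTGG (0.676% of all windows), the HNF4A motifs CAAAGGTCA (0.478%) and CAAAGTCCA (0.475%), and the ER stress element bound by ATF6 (0.119%) were in none of the 10. These motifs do not overlap with each other in the 2 windows shown. A match describes letters in the window and no binding was measured.

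The 8 genes together took 4.33 to 6.14% of a library's reads. Their share averaged 5.13 ± 0.46% in KO livers on ethanol and 4.90 ± 0.51% in KO pair-fed livers, 5.51 ± 0.41% in OE livers on ethanol and 5.73 ± 0.40% in OE pair-fed livers, and 5.44 ± 0.79% in control livers on ethanol and 5.36 ± 0.47% in control pair-fed livers (SD, n = 3 each). All 8 passed the filter on low values (at least 1 CPM in at least 3 libraries), as did 11720 genes in all. Amplicons differ in yield, so levels are compared for each gene across groups and not between genes. In bulk liver, fewer hepatocytes and less RNA per hepatocyte cannot be told apart.

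Over the 8 comparisons of 2 groups and the 2 differences between ethanol responses, none of the 8 genes passed an adjusted p under 0.05 (limma on log2(CPM + 1), Benjamini-Hochberg over the 11720 genes), and only Mttp had an unadjusted p under 0.05, in 1 of the comparisons. No fitted change of a gene exceeded 0.46 on the log2 scale. The share of all genes that passed was 9.9% for ethanol against pair-fed in KO livers, 1.15% in OE livers and 2.7% in controls. It was 0.0171% for KO against control on ethanol and 0.00853% pair-fed, 0.102% for OE against control on ethanol and 0.145% pair-fed, 1.88% for OE against KO on ethanol, and 0% for both differences between ethanol responses. At an unadjusted p under 0.05 the share of all genes was 26.1% for ethanol in KO livers, 14.5% in OE livers and 18.1% in controls, 8.34% for KO against control on ethanol and 3.13% pair-fed, 8.84% for OE against control on ethanol and 8.46% pair-fed, and 15.4% for OE against KO. The median change of the 8 genes was 0.12 with ethanol in KO livers, −0.03 in OE livers and 0.08 in controls, beside −0.05, −0.07 and −0.09 over all genes. In 2 comparisons, KO against control pair-fed (3.84% of all genes wholly higher and 3.22% wholly lower) and OE against control on ethanol (7.43% and 7.54%), the libraries of the 2 groups overlapped for all 8 genes, as they did for OE against KO on ethanol (8.94% and 12.5%).

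**Figure D1:**
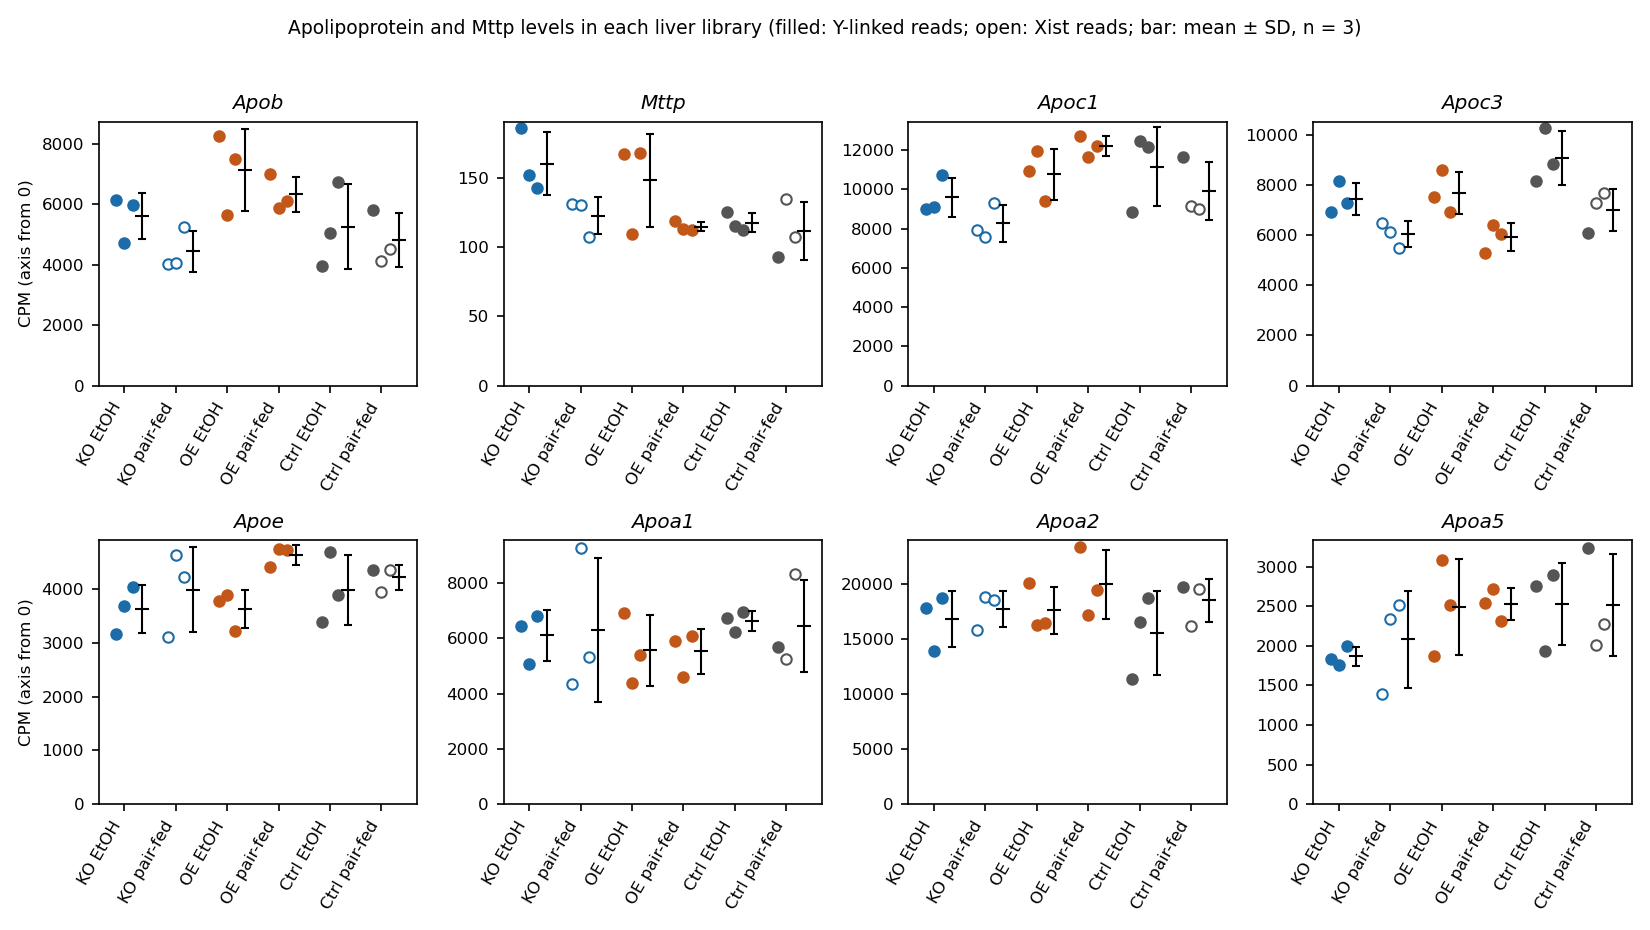
Level of each of the 8 genes in each library (vertical axis, CPM, starting at 0) by group (horizontal axis); open circles are the 5 libraries with Xist reads, filled circles the 13 with Y-linked reads, and the bar beside each group is the mean ± SD of its 3 libraries. Apoc3 libraries on ethanol lie above the pair-fed libraries of the same genotype in all 3 genotypes, and the 2 highest group means of Apob are those of the OE groups.

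Apob, which encodes the single structural protein of each VLDL particle, was at 8285, 5652 and 7519 CPM in OE livers on ethanol and at 3959, 5068 and 6753 CPM in control livers on ethanol. The groups overlapped: the lowest OE library lay below the highest control library. OE livers averaged 7152 ± 1354 CPM and control livers 5260 ± 1407 CPM (SD, n = 3 each), a change of 0.46 ± 0.24 (SE) on the log2 scale or 1.37-fold with a 95% interval of 0.968 to 1.95-fold, with limma adjusted p = 0.622.

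On the pair-fed diet, Apob was at 6997, 5899 and 6110 CPM in OE livers and at 5823, 4120 and 4533 CPM in control livers, and all OE libraries lay above all control libraries. The fitted change was 0.40 ± 0.24, 1.32-fold (0.932 to 1.88), with limma adjusted p = 0.691. Apob also separated the sex chromosome patterns: the 5 pair-fed libraries with Xist lay at 4022 to 5243 CPM and the 4 pair-fed libraries with Y-linked reads at 5823 to 6997 CPM, without overlap. This split largely follows genotype. All pair-fed KO libraries had Xist and all pair-fed OE libraries Y-linked reads, and only the controls were mixed. The control library closest to the OE libraries, at 5823 CPM, was the only pair-fed control with Y-linked reads. With a term for this pattern, which sets the OE libraries against that 1 control library, the OE change was 0.12 ± 0.33. Without the library labelled OE pair-fed replicate 1 it was 0.33 ± 0.28. Averaged over both diets, a contrast added after the data had been seen, OE livers had 1.35-fold more Apob than controls (1.05 to 1.73, 0.43 ± 0.17, unadjusted p = 0.0206, limma adjusted p = 0.364), and 0.102% of all genes passed, or 10.4% unadjusted. With the sex chromosome term this average was 0.29 ± 0.20 (limma adjusted p = 0.928). On ethanol, where every library had the same pattern, the term left the OE change at 0.46.

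In KO livers, Apob was at 6133, 4725 and 5993 CPM on ethanol and at 4022, 4073 and 5243 CPM pair-fed. These groups overlapped, and the change was 0.34 ± 0.24, 1.26-fold (0.89 to 1.80), with limma adjusted p = 0.395. With the sex chromosome term, which here rests on the 3 pair-fed controls, it was −0.09 ± 0.42. With ethanol the difference in Apob was 0.16 ± 0.24 in OE livers and 0.11 ± 0.24 in controls (−0.18 ± 0.33 in controls with the term), and KO livers differed from controls by 0.12 ± 0.24 on ethanol and −0.11 ± 0.24 pair-fed. In none of these comparisons did the groups stand apart. In the order of group means Apob ran from OE on ethanol, OE pair-fed, KO on ethanol, control on ethanol and control pair-fed to KO pair-fed, and no neighbours in that order stood apart.

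Mttp, whose protein loads apoB with lipid, was the least abundant of the 8 in reads (mean 705 per library, which sets a counting error of 3.77%). It was at 185.5, 151.8 and 142.5 CPM in KO livers on ethanol and at 125.2, 114.7 and 112.1 CPM in control livers on ethanol. All KO libraries lay above all control libraries, and all 6 carried the Y-linked pattern. KO livers averaged 159.9 ± 22.6 CPM and controls 117.3 ± 6.96 CPM (SD, n = 3 each), a change of 0.44 ± 0.18 or 1.35-fold (1.04 to 1.76). The unadjusted limma p was 0.0273 and the adjusted p 0.551. In this comparison 8.34% of all genes had an unadjusted p under 0.05, so 1 of 8 is near the background, and 8.23% of all genes had KO libraries wholly above control libraries.

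Pair-fed KO livers held 130.7, 129.9 and 107.1 CPM of Mttp and pair-fed controls 92.9, 134.5 and 107.5 CPM, an overlapping pair with a change of 0.14 ± 0.18. Ethanol-fed KO livers also lay above pair-fed KO livers in every library, by 0.38 ± 0.18 or 1.30-fold (0.997 to 1.69, limma adjusted p = 0.195). With the sex chromosome term this difference was 0.75 ± 0.32 (adjusted p = 0.641), and leaving out 1 library at a time gave 0.27 to 0.46.

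OE livers had 167.2, 109.2 and 167.8 CPM of Mttp on ethanol and 118.3, 113.2 and 112.2 CPM pair-fed, with 1 ethanol library below all pair-fed libraries. The change was 0.34 ± 0.18, 1.27-fold (0.972 to 1.65), with limma adjusted p = 0.415. It was 0.36 ± 0.21 without the library labelled OE pair-fed replicate 1 and 0.54 without OE ethanol replicate 2, the low library, still with an adjusted p of 0.208. In control livers the difference in Mttp with ethanol was 0.09 ± 0.18, 1.06-fold (0.815 to 1.38), and the term for the sex chromosome pattern gave 0.33 ± 0.25. The ethanol response of Mttp in KO minus that in control was 0.29 ± 0.26 and in OE minus control 0.25 ± 0.26 (adjusted p = 0.936 and 0.905), so a difference between genotypes in this response was not shown.

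The exchangeable apolipoproteins followed. Apoc3 encodes apoC-III, an inhibitor of lipoprotein lipase and of the uptake of triglyceride-rich particles. It was the only one of the 8 genes whose ethanol libraries all lay above the pair-fed libraries in each genotype. KO livers held 6917, 8157 and 7304 CPM on ethanol and 6503, 6146 and 5501 CPM pair-fed. OE livers held 7516, 8593 and 6946 CPM on ethanol and 5304, 6428 and 6069 CPM pair-fed. Control livers held 8189, 10290 and 8833 CPM on ethanol and 6089, 7284 and 7693 CPM pair-fed. Each genotype thus showed the same order without overlap, and the 3 comparisons share no library. How many of all genes did so in each of the 3 genotypes was not counted, so this order is not shown to be unusual.

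The changes in Apoc3 were 0.30 ± 0.21 in KO livers (1.23-fold, 0.914 to 1.66), 0.37 ± 0.21 in OE livers (1.29-fold, 0.959 to 1.75) and 0.38 ± 0.21 in controls (1.30-fold, 0.961 to 1.75). The limma adjusted p-values were 0.373, 0.438 and 0.35. The response in KO minus that in control was −0.07 ± 0.29 and in OE minus control 0.00 ± 0.29 (adjusted p = 0.98 and 1). Groups in which all ethanol libraries lay above all pair-fed libraries were found for 11.7% of all genes in KO livers, 7.83% in OE livers and 7.69% in controls. Apoc3 and Mttp were the 2 of 8 genes that did so in KO livers, and Apoc3 was the 1 of 8 in OE and the 1 of 8 in control livers. Wholly lower ethanol libraries were found for 0 of the 8 in KO livers (16.9% of all genes) and 0 in controls (14.4%).

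Averaged over the 3 genotypes, a contrast chosen after these values had been seen, ethanol-fed livers had 1.27-fold more Apoc3 (1.07 to 1.52, 0.35 ± 0.12 on the log2 scale, higher in 3 of 3 genotypes), with limma adjusted p = 0.0441. Mttp averaged 1.2-fold (1.03 to 1.4, adjusted p = 0.0773), and the other 6 genes had adjusted p-values from 0.257 to 0.925. In this average 20.5% of all genes passed (34.8% unadjusted), so 1 of 8 is not above the background. The Apoc3 call depended on the processing. It was made under 9 of 13 alternative settings, of which the compared libraries alone is here the main fit itself. It was also made in 4 of the 18 fits that left out 1 library (KO pair-fed replicate 1, OE ethanol replicate 3, OE pair-fed replicate 2 or control ethanol replicate 1). The library labelled OE pair-fed replicate 1 held the lowest Apoc3 value of the 18. Without it the averaged change was 0.32 ± 0.13 (limma adjusted p = 0.0842) and that in OE livers 0.29 ± 0.24 (limma adjusted p = 0.664). The limma adjusted p of the average was 0.256 with the sex chromosome term, where the change was 0.52 ± 0.21. After quantile normalization the averaged change was 0.08 (limma adjusted p = 0.707). In KO livers quantile normalization turned the direction (−0.12). The hepatocyte markers Ahsg, Fgb and Hp also rose and Ttr fell in this average, 4 of the 6 hepatocyte markers tested, while 8 of 12 Kupffer cell markers fell; their part in the Apoc3 result was not tested.

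Between genotypes, Apoc3 libraries of ethanol-fed KO livers all lay below those of ethanol-fed controls, by −0.28 ± 0.21 (0.821-fold, 0.608 to 1.11, limma adjusted p = 0.773). Such a separation downward was seen for 5.21% of all genes, and for 1 of the 8. OE livers differed from controls by −0.24 ± 0.21 on ethanol and −0.24 ± 0.21 pair-fed, and KO pair-fed livers by −0.21 ± 0.21, all with overlapping libraries. Over the 6 groups Apoc3 had the smallest residual spread of the 8, with an SD of 0.15 on the log2 scale within groups, in the lowest 2% of all genes.

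Apoc1 encodes apoC-I, a small protein that slows particle uptake. OE pair-fed livers held 12701, 11664 and 12236 CPM and control pair-fed livers 11645, 9145 and 9021 CPM. The groups did not overlap, but by a small margin: the highest control, again the pair-fed control with Y-linked reads, was next to the lowest OE library. The change was 0.31 ± 0.23 (1.24-fold, 0.886 to 1.72, limma adjusted p = 0.764). With the sex chromosome term, which leaves that control library alone on the control side, it was 0.07 ± 0.32. Apoc1 likewise separated the pair-fed libraries by pattern, with 7560 to 9320 CPM in the 5 with Xist and 11645 to 12701 CPM in the 4 with Y-linked reads. Apob and Apoc1 were 2 of 8 genes that did so, against 8.17% of all genes. As for Apob, this split sets all pair-fed KO libraries against all pair-fed OE libraries, so pattern and genotype are largely confounded in it. On ethanol, where the patterns match, OE livers averaged 10771 ± 1303 CPM of Apoc1 and controls 11160 ± 1999 CPM, a change of −0.04 ± 0.23.

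Ethanol-fed KO livers averaged 9598 ± 982 CPM of Apoc1 and pair-fed KO livers 8265 ± 931 CPM (0.22 ± 0.23). Ethanol-fed OE livers lay below pair-fed OE livers by −0.19 ± 0.23 and ethanol-fed controls above pair-fed controls by 0.16 ± 0.23. With the sex chromosome term the direction turned in KO livers (−0.14 ± 0.40) and in controls (−0.08 ± 0.32). The difference between the OE and control responses, −0.35 ± 0.32, was the largest interaction among the 8 genes and had a limma adjusted p of 0.905.

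Apoe encodes apoE, the ligand through which remnant particles bind receptors. In OE livers it was at 3775, 3886 and 3220 CPM on ethanol and at 4415, 4753 and 4734 CPM pair-fed, and all ethanol libraries lay below all pair-fed libraries. The change was −0.36 ± 0.20, 0.781-fold (0.581 to 1.05), with limma adjusted p = 0.449, and −0.39 ± 0.23 without the library labelled OE pair-fed replicate 1. In OE livers 14.6% of all genes showed this downward separation, and 1 of the 8 did. KO livers held 3164, 3682 and 4046 CPM on ethanol and 3114, 4638 and 4224 CPM pair-fed (−0.12 ± 0.20), and control livers 3391, 4686 and 3883 CPM on ethanol and 4353, 3955 and 4352 CPM pair-fed (−0.09 ± 0.20); both pairs overlapped. OE pair-fed libraries stood above the control pair-fed libraries by 0.14 ± 0.20, the only neighbours in the order of group means that did not overlap in any of the 8 genes. With Apob and Apoc1 this made 3 of 8 genes whose OE pair-fed libraries lay wholly above the controls, against 6.27% of all genes, while 0 of 8 lay wholly below (7.57%). That comparison mixes 3 OE libraries with Y-linked reads with 1 such control and 2 controls with Xist, and the part of this pattern and of the hepatocyte marker sums in it was not tested beyond the values with the sex chromosome term.

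Apoa5 encodes apoA-V, an activator of triglyceride clearance by lipoprotein lipase. It was at 1840, 1759 and 1999 CPM in KO livers on ethanol and at 2756, 1934 and 2901 CPM in controls on ethanol. KO livers held the 2 lowest values, but their highest library exceeded the lowest control library. The change was −0.42 ± 0.25, 0.748-fold (0.518 to 1.08, limma adjusted p = 0.708), and on the pair-fed diet it was −0.29 ± 0.25. OE livers on ethanol, at 1869, 3080 and 2510 CPM, overlapped with KO livers and differed from them by 0.39 ± 0.25 (1.31-fold, 0.905 to 1.89, adjusted p = 0.504). With ethanol the fitted difference in Apoa5 was −0.11 ± 0.25 in KO, −0.05 ± 0.25 in OE and 0.02 ± 0.25 in control livers. With the sex chromosome term it was −0.71 ± 0.43 in KO livers (adjusted p = 0.775) and −0.38 ± 0.34 in controls (adjusted p = 0.749), and leaving out 1 library gave −0.38 (without KO pair-fed replicate 1) to 0.05 in KO livers.

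Apoa1 and Apoa2, the main proteins of HDL, showed no separation of groups in any comparison. Apoa1 averaged 6099 ± 926 CPM in KO livers on ethanol and 6309 ± 2601 CPM in KO pair-fed livers, where 1 library reached 9261 CPM and another was at 4352 CPM. It averaged 5557 ± 1274 CPM in OE livers on ethanol and 5536 ± 814 CPM pair-fed, and 6640 ± 361 CPM in control livers on ethanol and 6426 ± 1662 CPM pair-fed (SD, n = 3 each). The ethanol changes were 0.02, −0.01 and 0.08 in KO, OE and control livers, each ± 0.28, and their 95% intervals lay within 0.664 to 1.58-fold. OE livers differed from controls by −0.28 ± 0.28 on ethanol and −0.20 ± 0.28 pair-fed.

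Apoa2 averaged 16849 ± 2532 CPM in KO livers on ethanol and 17757 ± 1627 CPM pair-fed, 17656 ± 2128 CPM in OE livers on ethanol and 20023 ± 3147 CPM pair-fed, and 15572 ± 3792 CPM in controls on ethanol and 18538 ± 1984 CPM pair-fed (SD, n = 3 each). Ethanol groups had the lower mean in all 3 genotypes, by −0.08, −0.18 and −0.28 (each ± 0.27), with overlapping libraries. In controls the ethanol libraries ranged from 11387 to 18780 CPM.

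**Figure D2:**
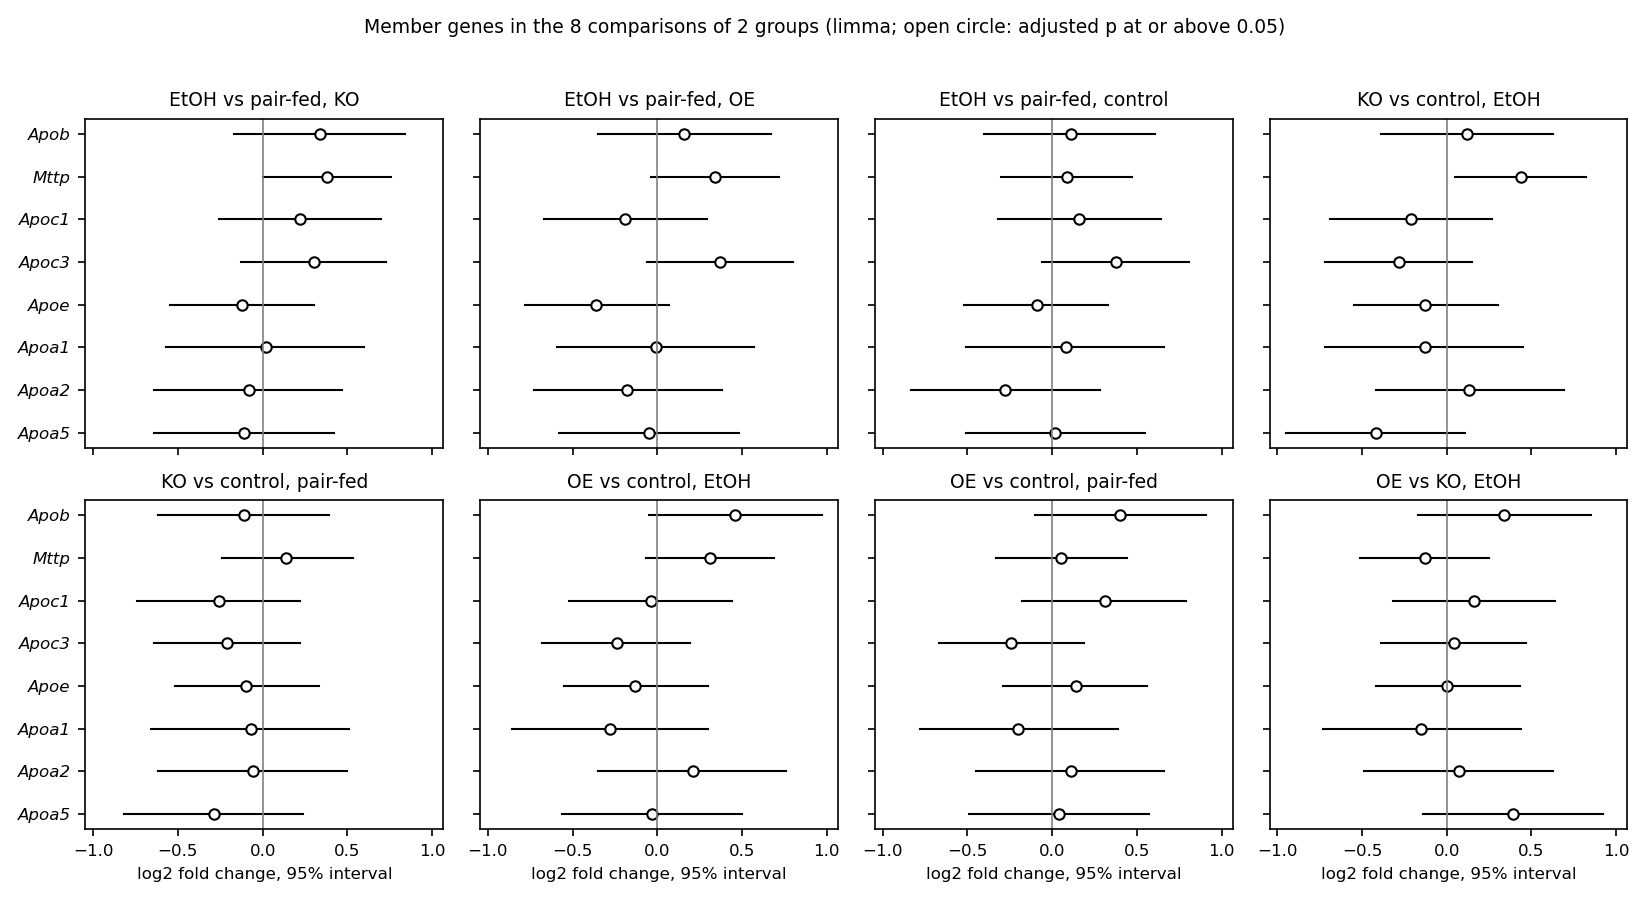
Fitted log2 fold changes (horizontal axis, circles) with 95% intervals (lines) of the 8 genes (vertical axis) in the 8 comparisons of 2 groups, each named as the group on top of the fold against the other; open circles mark adjusted p at or above 0.05. All circles are open and lie between −0.42 and 0.46, and the interval of Mttp in KO against control on ethanol lies wholly above 0.

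The 8 genes differed in how steady they were. Within groups their residual SD was between 0.15 (Apoc3) and 0.33 (Apoa1) on the log2 scale with a median of 0.22, against 0.34 over all genes tested and 0.29 over the genes with a mean of at least 1000 CPM. Counting error at each gene's mean reads was 0.321 to 0.884% apart from Mttp, well below the spread within groups. The range of group means had a median of 0.48 over the 8 genes, against 0.67 over all genes and 0.73 over the abundant ones. It was widest for Apob (0.68), Apoc3 (0.62) and Apoc1 (0.57) and narrowest for Apoa1 (0.28). For 7 of the 8 genes, no 2 groups that were neighbours in the order of means stood apart.

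Library by library, deviations from the group means were alike in some pairs and opposed in others. Across the 18 libraries, Apoa2 and Apob deviated together (Pearson r = 0.82, Spearman rho = 0.81, r = 0.74 without the 2 libraries farthest from the median of Apoa2). Apoc1 and Mttp deviated in opposite directions (r = −0.68, rho = −0.67, r = −0.68 without 2 libraries). These were the highest and the lowest r of 28 pairs, of which 16 were positive, and they are given as a description, since all genes of a library share its RNA and its scaling. Apoa5 opposed Mttp (r = −0.59, −0.56 without 2 libraries), and Apob opposed Apoc3 (r = −0.54). Without 2 libraries the r of Apob with Apoc3 was −0.83. In each pair the 2 libraries left out were those farthest from the median of the first gene named. They were not the same 2 for Apob as for Apoc1, so these reduced values do not rank the pairs. Of the genes that lie side by side, Apoa1, Apoc3 and Apoa5 are in 1 cluster with Apoa4 on chromosome 9, and Apoa1 with Apoc3 gave r = −0.19 and Apoa5 with Apoc3 r = −0.44, while the neighbours Apoc1 and Apoe on chromosome 7 gave r = 0.54. Apoa2 lies on chromosome 1, Apob on 12 and Mttp on 3.

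**Figure D3:**
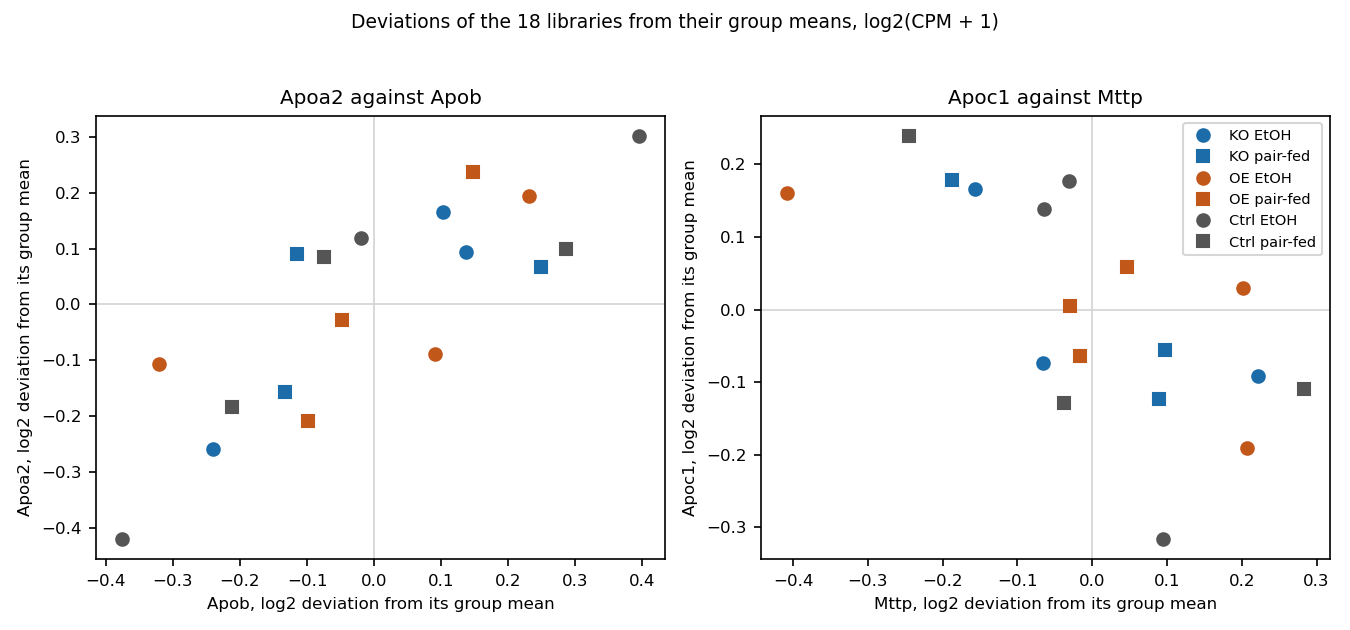
Deviation of each of the 18 libraries from its group mean in log2(CPM + 1), for Apoa2 (vertical axis) against Apob (horizontal axis) at left and for Apoc1 (vertical) against Mttp (horizontal) at right; colour gives the genotype, circles are ethanol and squares pair-fed. The points rise together at left (r = 0.82) and run opposite at right (r = −0.68).

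Of the 8449 other genes with a mean of at least 5 CPM, Arid1b and Tex264 were among those most like Apob over the 18 libraries in log2(CPM + 1), each with Pearson r = 0.89 (Spearman rho 0.86 and 0.83). Those most like Apoc3 were Cd300lg (r = 0.87, rho = 0.84), Col13a1 (0.86 and 0.86) and Orm3 (0.82 and 0.81). Those most like Apoc1 were Mgst1 (0.89 and 0.82), Abcc3 (0.85 and 0.85) and Atg7 (0.84 and 0.82). They were the highest of a large search and share the libraries' groups and depth.

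Of the other genes of the pathway, held in 6 lists, 107 were tested. In KO livers 2 rose and 19 fell (19.6% of the 107, against 9.9% of all genes), in OE livers 0 rose and 5 fell (4.67% against 1.15%), and in controls 1 rose and 7 fell (7.48% against 2.7%), at a limma adjusted p under 0.05. With the sex chromosome term 0 passed in KO livers, 7 in OE livers and 1 in controls, which was Apol7a, and over all genes 0, 165 and 23 passed. The term takes its size from the pair-fed controls, so in KO livers it cannot separate ethanol from the pattern. In controls it leaves 1 pair-fed library to compare with. KO against control gave 0 on either diet. The lists were chosen with earlier results known, and no enrichment was tested. Kupffer cell and macrophage markers summed to 268 to 318 CPM in KO livers on ethanol against 635 to 794 CPM pair-fed, with 9 of 12 tested markers lower and C1qa at 0 in both groups; their part in the falls of the KO comparison was not tested.

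**Figure D4:**
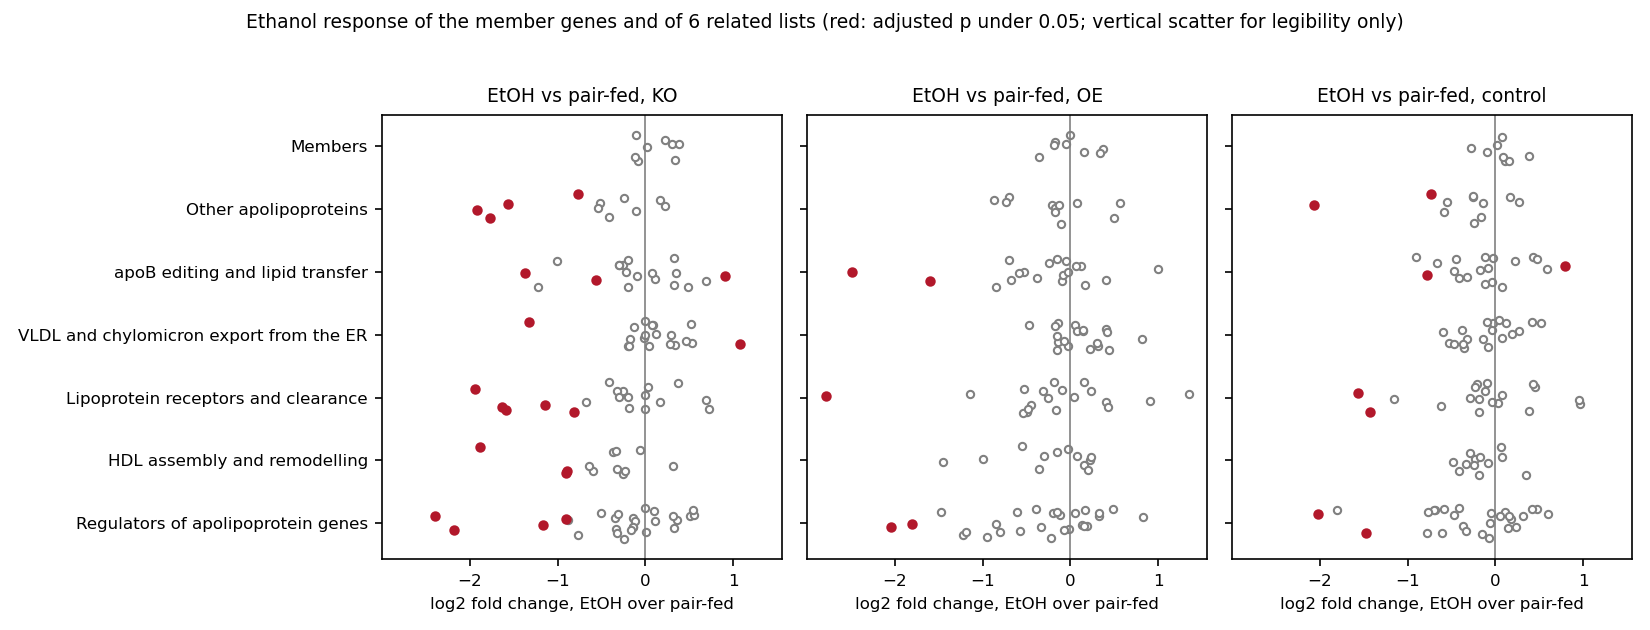
Log2 fold change of ethanol over pair-fed (horizontal axis) in KO, OE and control livers for each gene of the 8 described here and of 6 related lists (rows); filled red points passed an adjusted p under 0.05 and open grey points did not. The top row holds no red point in any of the 3 panels, and most red points lie left of 0.

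Among genes that act on apoB lipidation in the ER, Pla2g12b, which is needed for VLDL to gain triglyceride, averaged 116.9 CPM in KO livers on ethanol and 61.7 CPM pair-fed (0.91 ± 0.14, limma adjusted p = 0.000685), and 118.9 CPM in controls on ethanol and 68.4 CPM pair-fed (0.79 ± 0.14, adjusted p = 0.00766). Aadac, an ER triglyceride hydrolase, fell to 0.677-fold in KO livers and 0.582-fold in controls (adjusted p = 0.0429 and 0.0181), and with TMM scaling its adjusted p in KO livers was 0.079. In OE livers neither gene passed, but both moved in the same direction. Pla2g12b averaged 107.7 CPM there on ethanol and 81.2 CPM pair-fed, and Aadac 140.9 and 224.8 CPM, each without overlap. Over all genes in OE livers, 7.83% were wholly higher on ethanol and 14.6% wholly lower. Lpin2, a phosphatidate phosphatase that makes diglyceride for triglyceride, fell by 1.37 on the log2 scale in KO livers and by 1.60 in OE livers, and Lpin1, its relative, fell by 2.49 ± 0.54 in OE livers. In the last comparison Lpin1 averaged 373.4 CPM on ethanol and 1662 CPM pair-fed, and its adjusted p was 0.0306, or 0.11 without the library labelled OE pair-fed replicate 1. Of the 19 tested genes of this list, 3 passed in KO livers, 2 in OE livers and 2 in controls.

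Of the 19 tested genes of VLDL and chylomicron export, 2 passed in KO livers and 0 in OE or control livers. Sec24d, a cargo adaptor of the COPII coat, averaged 140.5 CPM in KO livers on ethanol and 66.7 CPM pair-fed (1.08 ± 0.24, limma adjusted p = 0.00985). Svip, a small partner of the ATPase VCP, averaged 4.1 and 11.8 CPM (−1.33 ± 0.28, adjusted p = 0.00576).

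Among lipoprotein receptors and clearance genes, 5 of 19 fell in KO livers, 1 in OE livers and 2 in controls. Lipg, endothelial lipase, fell in all 3 genotypes, to 13.0 CPM on ethanol against 54.6 CPM pair-fed in KO livers (−1.94 ± 0.31), to 20.2 against 139.8 CPM in OE livers (−2.79 ± 0.31) and to 16.6 against 50.3 CPM in controls (−1.57 ± 0.31), with limma adjusted p-values of 0.000861, 0.000251 and 0.0105. Lrp1, a receptor for remnants, fell to 0.568-fold in KO livers (adjusted p = 0.0207), and Lpl, lipoprotein lipase, to 0.322-fold there (adjusted p = 0.0487). The log2 change of Lpl was −0.63 ± 0.90 with the sex chromosome term (limma adjusted p = 0.931), against −1.63 without it. That term takes its size from the pair-fed controls and cannot separate ethanol from the pattern in KO livers.

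Of 12 HDL genes, 3 fell in KO livers and 0 passed in OE or control livers. No gene of the panel passed the test of a difference between the KO or OE response and that of controls (5.68% and 7.23% of all genes had an unadjusted p under 0.05). Pltp, phospholipid transfer protein, averaged 51.6 CPM in KO livers on ethanol and 194.8 CPM pair-fed (−1.89 ± 0.40, limma adjusted p = 0.00612). With the sex chromosome term its change was −0.09 ± 0.53. In KO livers this term only subtracts the gap between the pair-fed controls of either pattern and does not separate ethanol from the pattern. Pcyox1, an oxidase carried on lipoproteins, fell to 0.538-fold and the sterol exporter Abcg5 to 0.535-fold, log2 changes of −0.89 and −0.90. Under the sex chromosome term these were −0.47 ± 0.38 and −0.37 ± 0.47, and with TMM scaling the adjusted p of Abcg5 was 0.0762.

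Of 27 tested regulators of these genes, 4 fell in KO livers, 2 in OE livers and 2 in controls. Srebf1, the gene of the lipogenic factor SREBP-1, averaged 69.6 CPM in KO livers on ethanol and 405.5 CPM pair-fed (−2.40 ± 0.37, limma adjusted p = 0.000685), and 97.0 CPM in controls on ethanol and 413.3 CPM pair-fed (−2.02 ± 0.37, adjusted p = 0.00782). Ppara, the fatty acid sensing receptor, fell to 0.446-fold and Nr0b2, a corepressor, to 0.220-fold in KO livers. There the sex chromosome term gave log2 changes of −0.94 ± 0.45 for Ppara, −0.65 ± 0.82 for Nr0b2 (limma adjusted p = 0.913) and −1.73 ± 0.65 for Srebf1. These values are shifted by the gap between the pair-fed controls and do not separate ethanol from the pattern. The coactivator gene Ppargc1b fell to 0.287-fold in OE livers and 0.360-fold in controls. Nr1d1, a circadian repressor, was at 74.2 CPM in OE pair-fed livers against 12.9 CPM in control pair-fed livers (2.42 ± 0.37, adjusted p = 0.00685) and at 17.2 CPM in OE livers on ethanol. It was the 1 of 107 pathway genes that passed between OE and control livers pair-fed. With the sex chromosome term, which leaves 1 pair-fed control library to compare with, its change in that comparison was 2.44 ± 0.54. Without the library labelled OE pair-fed replicate 1 the change was 2.62 ± 0.41 (limma adjusted p = 0.0134).

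Of 11 other apolipoproteins tested, 4 fell in KO livers, 0 passed in OE livers and 2 fell in controls, and their median change was −0.52, −0.17 and −0.25. Apol7a, of the apolipoprotein L family, averaged 73.9 CPM in KO livers on ethanol and 279.8 CPM pair-fed (−1.92 ± 0.18, limma adjusted p = 1.98e-05), and 60.7 CPM in controls on ethanol and 259.1 CPM pair-fed (−2.07 ± 0.18, adjusted p = 5.29e-06). On ethanol it was higher in OE livers, at 124.0 CPM, than in controls (1.02 ± 0.18, adjusted p = 0.0336) and than in KO livers (0.75 ± 0.18, adjusted p = 0.0351). With TMM scaling the adjusted p of the OE against control difference was 0.0509, and leaving out 1 library at a time gave 0 pathway genes in that comparison in each of the 6 fits. Apol9a and Apol9b, near-identical copies whose reads the panel may not separate, were at 20.3 and 35.7 CPM in OE livers on ethanol and at 4.7 and 9.2 CPM in KO livers on ethanol (adjusted p = 0.0247 and 0.00342). Apof, whose protein inhibits lipid transfer in human plasma, fell to 0.588-fold with ethanol in KO livers and 0.604-fold in controls (adjusted p = 0.015 and 0.0439). In controls its adjusted p was 0.115 with TMM scaling and 0.27 with the sex chromosome term.

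Between OE and KO livers on ethanol, all with the Y-linked pattern, 4 pathway genes were higher and 4 lower (7.48% of 107, against 1.88% of all genes), and 0 of the 8 genes passed. Soat2, which esterifies cholesterol for apoB particles, averaged 18.7 CPM in OE livers and 72.8 CPM in KO livers (−1.80 ± 0.31, limma adjusted p = 0.00546). Pnpla2, the main lipase of lipid droplets, averaged 76.1 and 168.2 CPM (−1.12 ± 0.23, adjusted p = 0.0153), and Lpin1 373.4 and 1507 CPM (−2.16 ± 0.54, adjusted p = 0.0467, or 0.0606 with TMM scaling). Rora, a nuclear receptor, was 0.520-fold and Svip 2.44-fold in OE livers over KO livers. Leaving out 1 library at a time gave 2 to 6 calls among the pathway genes.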

How the data were processed

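The authors measured liver RNA of 18 libraries with the Ion AmpliSeq mouse transcriptome panel, per the labels' protocols. The deposited series table holds CPM, scaled to the library total alone, and the per-library files hold log2(RPM + 1), made with ampliSeqRNA 5.10.1.2, per the file headers. Both hold the same measurement: taking log2(CPM + 1) of the series table gave the per-library value within 2.0e-06. Aligner and build: not given in the sources used here. The 8 genes found of 10 listed, the 6 pathway lists, the marker lists and the tests were chosen with earlier results of these data known.

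The 11720 genes that reached 1 CPM in 3 or more libraries were fitted with limma 3.58.1 in R 4.3.3 (log2(CPM + 1), pseudocount 1, a mean per group over all 18 libraries, eBayes with trend). Fold changes are on that scale. Tests were two-sided, adjusted by Benjamini-Hochberg over all 11720 genes within each of 10 contrasts, and called under 0.05; 3 averages over genotypes or diets were added later, with the data in view. All 8 genes are named throughout. Of each pathway list, at most the 4 called genes with the smallest adjusted p per comparison were eligible to be named; Lpl is outside this rule and was named after its value was seen, and a few eligible genes are not reported here. Intervals are 95% limma intervals, and ± is SE for changes and SD for levels.

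The deposited CPM were whole multiples of 1 read in 100.0% of values (within 0.02 reads). On these reads, edgeR 4.0.16 (quasi-likelihood, TMM) called 1264 genes for ethanol in KO, 134 in OE and 285 in control livers, and 0 of the 8. Alternatives were TMM, quantile normalization, pseudocounts of 0.1 and 10, no filter or one of 10 CPM (7736 genes), array weights, a replicate block, a barcode range block, a term for the sex chromosome pattern, the compared libraries alone, edgeR, DESeq2 1.42.0 and leaving out each library. Scripts were tested on simulated data. PCR reads carry no molecular identifiers, so counting errors cover reads only.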

Additional observations from a re-analysis of the deposited data

How the results depend on the processing

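In each of the 10 comparisons of the main design 0 of the 8 genes passed, and this held under all 13 alternative settings and all fits without 1 library, with 2 exceptions. Array weights called 1 gene for ethanol in KO livers (Mttp, 0.50 ± 0.17, adjusted p = 0.0478), and DESeq2 called 1 for ethanol in controls (Apoc3, 0.47 ± 0.14, adjusted p = 0.0316). For ethanol averaged over the 3 genotypes, 1 gene passed (Apoc3), with 2 under TMM, array weights, edgeR and DESeq2 (Apoc3 and Mttp), 1 with quantile normalization that was Mttp and not Apoc3 (0.32, adjusted p = 0.0364), 0 with no filter, the barcode range block and the sex chromosome term, and 0 to 1 without 1 library (Apoc3 in 4 and Mttp in 2 of 18 fits). Of the 2264 values of the 8 genes under alternatives, 188 had another sign than the main value, none of them called. The cause of these differences was not tested.

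Replicate numbers did not pair the samples: correlations of same-numbered deviations ran from −0.27 to 0.28 and exceeded 0.1 for all 3 numbers in no comparison. With the replicate block 0 of the 8 genes passed in each of the 10 comparisons. All-gene calls moved more. For ethanol in KO livers they were 1160, against 2235 with array weights, 753 in those libraries alone, 595 with no filter, 0 with the sex chromosome term and 621 to 1209 without 1 library. In controls they were 316, against 588 with DESeq2, 537 with array weights, 139 alone, 88 with no filter, 23 with the sex term and 49 to 281 without 1 library. In OE livers they were 135, against 505 with array weights, 363 with DESeq2, 336 alone, 16 with no filter and 17 to 149 without 1 library, and between OE and KO on ethanol 220, against 766 with array weights, 498 with DESeq2, 67 with no filter and 83 to 271. For KO against control on ethanol they were 2, with more under array weights, 50 with DESeq2 and 1 to 36 without 1 library. For OE against control they were 12 on ethanol, with more under DESeq2, 71 with array weights, 2 with the barcode range block, 0 with no filter and 0 to 10 without 1 library, and 17 pair-fed, against 98 with DESeq2, 33 with array weights, 1 with the sex term and 5 to 86. For the differences between ethanol responses they were 0, against 13 (KO) and 60 (OE) with DESeq2. TMM moved the share of calls that were higher: 54.7% of calls with TMM against 41.5% for ethanol in KO livers, 60.5% against 34.8% in OE livers, 58.9% against 38% in controls, 54% against 35.1% averaged over genotypes and 39.1% against 28.2% between OE and KO. Over the 13 settings, 0 to 32 pathway genes passed for ethanol in KO livers, 2 to 16 in OE livers and 1 to 10 in controls. TMM moved the median of all genes by at most 0.09. At each gene's mean reads per library, counting depth adds at most 3.77% error for these genes, less than the spread between libraries.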
